A study of Bos grunniens with 6 samples.

Results

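The 8 genes *METTL14*, *VIRMA*, *RBM15*, *FTO*, *ALKBH5*, *YTHDF2*, *YTHDC1* and *YTHDC2* encode proteins that add, remove or bind N6-methyladenosine (m6A) in RNA. They were taken by gene symbol from the list of m6A peaks of cattle-yak testis, where they carried 21 of the 16186 listed peaks on 9 gene identifiers, *VIRMA* being named on 2 of them. The expression table, which pairs no symbol with its identifiers, holds 20953 identifiers, among them these 9. Cattle-yaks are hybrids of cattle and yak whose males are sterile. Testis tissue was obtained by castration from 3 healthy animals aged 5 years (TES5, TES6 and TES7), and each gave 1 library from RNA pulled down with an antibody against m6A (IP) and 1 from the same RNA before the pull-down (input), 6 libraries in all. No treatment, transgene or second genotype is part of the series, so each comparison below is between genes, peaks or animals and not between conditions. Yak libraries were not analysed here. Because the peak list was searched by symbol, a listed peak on each of the 8 genes follows from how they were chosen and is not a result. Of all identifiers in the expression table, 41.9% carried at least 1 listed peak, and of those with an FPKM of 1 or more in each library 66.9% did.

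m6A is placed on messenger RNA by a nuclear writer complex. Its core is a pair of methyltransferase-like proteins, METTL3, which carries the catalytic site, and METTL14, which holds the RNA. VIRMA, the large scaffold of the attached regulatory subcomplex, directs methylation towards the end of the coding sequence and the 3' UTR, and RBM15 is an RNA-binding subunit that recruits the complex to its sites. FTO and ALKBH5 are iron-dependent dioxygenases that remove the mark, and loss of ALKBH5 makes male mice infertile. Proteins with a YTH domain read it. YTHDF2 in the cytoplasm brings methylated transcripts to decay, YTHDC1 in the nucleus acts in splicing and export, and YTHDC2 is a helicase that germ cells need to enter and stay in meiosis.

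The study also designed primers for these genes, and 3 pairs are shown because the listed records of these genes raise the question of which transcript an identifier stands for. *VIRMA* is named on more than 1 identifier, and the ontology terms listed for *FTO* and *YTHDC2* belong to other kinds of protein. The primers were not placed on the genome here, so they do not show which transcript an identifier stands for. Nothing is in capitals because no part of them was singled out.
VIRMA forward: actactgccttgcgtgttct
VIRMA reverse: agcgagccatcgaaatggta
FTO forward: gcacaagcacggctgtttat
FTO reverse: ttgacaggcggcagctattt
YTHDC2 forward: agtggaagtgatctcagtgcag
YTHDC2 reverse: gtgcattttcagcaaaccgc
The *YTHDC2* forward primer has 22 bases and the other 5 have 20, and each holds 50% G and C.

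Expression was read from the input libraries as FPKM, fragments scaled by transcript length and library size, and levels of different genes were set side by side. Such a comparison rests on the annotated transcript lengths, which were not checked here. The highest level was that of the eraser *ALKBH5* and the lowest of a gene named on a single identifier that of the other eraser, *FTO*. All 9 identifiers reached an FPKM of 1 in each input library, a level that 54.4% of all identifiers reached. The median of their mean FPKM was 13.8, beside 9.63 over the 11402 identifiers that passed the same minimum and 8.90 over the 7629 of these with a peak.

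Of the 3 writers among the members, *VIRMA* stood first. Its first identifier (ENSBGRG00000008337) had an FPKM of 24.3 in TES5, 24.2 in TES6 and 27.1 in TES7, a mean of 25.2 ± 1.64 (SD, n = 3). *RBM15* (ENSBGRG00000002938) had an FPKM of 13.3, 13.7 and 14.8 in the same order, a mean of 13.9 ± 0.801 (SD, n = 3). *METTL14* (ENSBGRG00000004579) had an FPKM of 5.86, 5.73 and 6.25, a mean of 5.95 ± 0.273 (SD, n = 3). Of these 3 identifiers, that of the core subunit *METTL14* was the lowest in every animal and that of the scaffold *VIRMA* the highest. Within a library, the FPKM of *VIRMA* was 4.15 (TES5), 4.22 (TES6) and 4.33 (TES7) times that of *METTL14* and 1.83, 1.77 and 1.83 times that of *RBM15*. A ratio of this kind is taken inside 1 library and does not depend on how the libraries are scaled against each other.

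The erasers lay far apart. *ALKBH5* (ENSBGRG00000017200) had an FPKM of 85.9 (TES5), 73.0 (TES6) and 73.2 (TES7), a mean of 77.4 ± 7.37 (SD, n = 3). It was above 97.3% of all identifiers and above 95% of those at an FPKM of 1 or more in each library. *FTO* (ENSBGRG00000024270) had an FPKM of 5.82, 5.24 and 5.43, a mean of 5.49 ± 0.295 (SD, n = 3), above 62.9% and 31.9% of identifiers by the same counts. Both were highest in TES5. The FPKM of *ALKBH5* was 14.8, 13.9 and 13.5 times that of *FTO* in TES5, TES6 and TES7, a mean ratio of 14.1 ± 0.651 (SD, n = 3).

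The readers fell between these. *YTHDC1* (ENSBGRG00000011676), the nuclear reader, had an FPKM of 20.8 in TES5, 20.8 in TES6 and 22.1 in TES7, a mean of 21.2 ± 0.736 (SD, n = 3). *YTHDF2* (ENSBGRG00000015573) had an FPKM of 14.7, 12.9 and 14.0, a mean of 13.8 ± 0.896 (SD, n = 3). *YTHDC2* (ENSBGRG00000011689), the meiotic reader, had an FPKM of 8.83, 8.63 and 8.54, a mean of 8.66 ± 0.147 (SD, n = 3). The ranges of the 3 readers over the animals did not overlap, with *YTHDC1* above *YTHDF2* and *YTHDF2* above *YTHDC2* in each animal. The FPKM of *YTHDC1* was 2.35, 2.42 and 2.59 times that of *YTHDC2*.

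**Figure D1:**
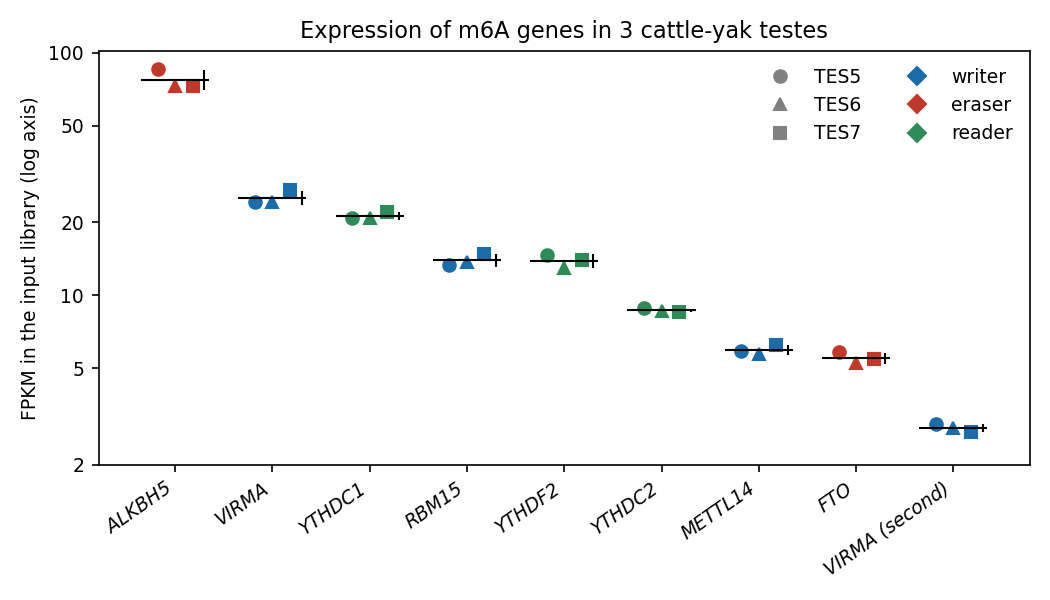
FPKM (log axis) of the 9 identifiers in the input libraries of TES5 (circles), TES6 (triangles) and TES7 (squares), ordered by mean and coloured by role; horizontal lines are means and vertical lines are 1 SD (n = 3). *ALKBH5* sits alone between 73.0 and 85.9, and *RBM15* and *YTHDF2* share a level of about 14. The role is that of the listed symbol, also for the second *VIRMA* identifier.

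From highest to lowest, the order of mean FPKM was *ALKBH5*, *VIRMA* (first identifier), *YTHDC1*, *RBM15*, *YTHDF2*, *YTHDC2*, *METTL14*, *FTO* and *VIRMA* (second identifier). Ranges over the animals overlapped in 2 neighbouring pairs. *RBM15* and *YTHDF2* did not differ beyond their spread, since the difference of their FPKM was 0.0753 ± 1.27 (SD, n = 3) and *YTHDF2* was the higher one in TES5. *METTL14* exceeded *FTO* in 3 of 3 animals, by an FPKM of 0.454 ± 0.391 (SD, n = 3), with overlapping ranges. The other neighbours kept their order in every animal without overlap. No p-value is given for these differences, because an exact paired permutation test over 3 animals cannot go below 0.25 (two-sided).

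The spread of the members between the animals was below the median of expressed identifiers. In the deposited scaling, the coefficient of variation (SD over mean) ran from 1.69% for *YTHDC2* to 9.52% for *ALKBH5*. The other values were 3.47% for *YTHDC1*, 4.58% for *METTL14*, 5.36% for *FTO*, 5.75% for *RBM15*, 6.47% for *YTHDF2*, and 6.49% and 3.63% for the first and second *VIRMA* identifiers. All 9 lay under 12.2%, the median over identifiers at an FPKM of 1 or more in each library, below which 50% of identifiers lie by construction. The median was 11.6% over the 9167 such identifiers whose mean FPKM lay within the members' range. Which member varied least or most depended on the scaling. With the libraries at the same FPKM sum, the coefficient was lowest for *FTO* (1.57%) and highest for the first *VIRMA* identifier and *RBM15* (8.25% each), with 2.54% for *YTHDC2* and 5.69% for *ALKBH5*.

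**Figure D2:**
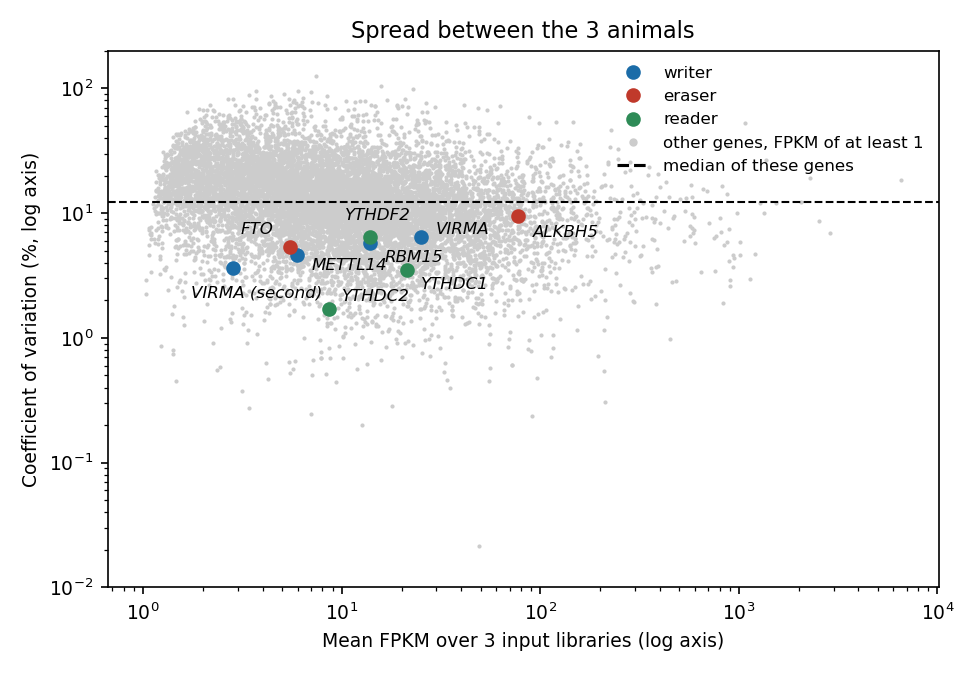
Coefficient of variation between the 3 animals (SD over mean, %, log axis) against mean FPKM (log axis); grey points are the other identifiers at an FPKM of 1 or more in each input library and the dashed line is the median of all such identifiers, 12.2%. All 9 member identifiers lie under the line, from 1.69% (*YTHDC2*) to 9.52% (*ALKBH5*) in the deposited scaling.

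The library with the highest level differed by gene. Among writers, the first *VIRMA* identifier, *RBM15* and *METTL14* were highest in TES7, as was the reader *YTHDC1*, 4 of 9 identifiers, while 32.4% of expressed identifiers were highest in TES7. The erasers *ALKBH5* and *FTO*, the readers *YTHDF2* and *YTHDC2* and the second *VIRMA* identifier were highest in TES5, 5 of 9, against 39.7% of expressed identifiers. None was highest in TES6, against 27.9%. With the libraries rescaled to the same FPKM sum, *YTHDF2* was highest in TES7, and *YTHDC2* and the second *VIRMA* identifier in TES6. The library of the highest level was unchanged by that rescaling for the first *VIRMA* identifier, *YTHDC1*, *RBM15*, *METTL14*, *ALKBH5* and *FTO*.

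Markers of the cells a testis can hold were read from the same libraries. A symbol could be matched only where the peak list holds it, so the number matched is not the number expressed. Of 9 Sertoli cell symbols 4 were matched, with mean FPKM values from 7.73 ± 1.44 (*FSHR*) to 29.6 ± 4.94 (*WT1*; SD, n = 3). Of 6 Leydig cell symbols only *STAR* was matched (107 ± 5.95), and of 4 peritubular myoid symbols all were, from 10.1 ± 1.26 (*CNN1*) to 237 ± 14.7 (*ACTA2*). All 3 endothelial and all 3 macrophage symbols were matched, with means of 2.17 to 3.27 and 3.53 to 4.92. The 11 identifiers that carry 6 of 8 spermatocyte symbols, *SYCP3* and *DMC1* among them, summed to an FPKM of 82.6 (TES5), 56.1 (TES6) and 62.9 (TES7), with 1 *SYCP2* identifier listed at 0. Not every marker followed the sum, since *TEX11* was highest in TES7 (5.57, 5.66 and 6.37) and 1 *SYCP2* and 2 *DMC1* identifiers of low level in TES6. The 3 identifiers for 3 of 9 spermatogonia symbols, *ZBTB16*, *KIT* and *GFRA1*, summed to 15.8, 18.9 and 24.2. *GFRA1* did not follow the sum and was highest in TES6 (0.572, 0.936 and 0.863). None of the 8 spermatid symbols had a listed peak, and their levels were not analysed here. The spermatocyte sum was thus highest in TES5, as were *ALKBH5*, *FTO*, *YTHDF2*, *YTHDC2* and the second *VIRMA* identifier in the deposited scaling. The spermatogonia sum was highest in TES7, as were *METTL14*, *RBM15*, *YTHDC1* and the first *VIRMA* identifier. Germ cell markers were not alone in this. The Leydig cell marker *STAR* (100, 108 and 112) and the macrophage sum (11.7, 12.8 and 14.5) were also highest in TES7. Sums of the Sertoli, peritubular myoid and endothelial markers were highest in TES6. The part of any of these cell types in the members' levels was not tested. In whole tissue, fewer cells of a type and less RNA per cell cannot be told apart.

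The m6A peaks on these genes came from 1 list for the 3 animals. It gives each peak a start, an end, a class and a gene but no score and no value per animal, so a spread between animals cannot be stated for a peak. Positions are those of LU_Bosgru_v3.0, and the width of a peak is its span on the genome, introns included. Exon class peaks made up 17 of the 21, or 81.0% (Wilson 95% interval 60% to 92.3%). There were 3 peaks of the 3' UTR class, or 14.3% (4.98% to 34.6%), on *ALKBH5* and both *VIRMA* identifiers. The single 5' UTR class peak, on *FTO*, made up 4.76% (0.846% to 22.7%). Over all listed peaks, the shares were 70.3%, 20.8% and 8.82%, each within the members' interval. These intervals cover counting error only. Peaks of 1 gene are not independent of each other. Among the 9 identifiers, 2 had 1 peak, 5 had 2 peaks, 1 had 3 and 1 had 6, so that 7 of 9 had 2 or more, as did 46% of all identifiers with a peak. By class, 5 of 9 had exon class peaks alone (*YTHDC1*, *RBM15*, *YTHDF2*, *YTHDC2* and *METTL14*), against 57.9% of identifiers with a peak. A 3' UTR class peak was on 3 of 9, against 32.1%, and a 5' UTR class peak on 1 of 9, against 14%. The class is 1 label per peak, so an exon class peak can reach the 3' end of its transcript. Peaks of this class on *YTHDC1*, *METTL14* and *YTHDF2* ended 150 bases before the listed 3' end, 303 bases past it and on its last base.

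**Figure D3:**
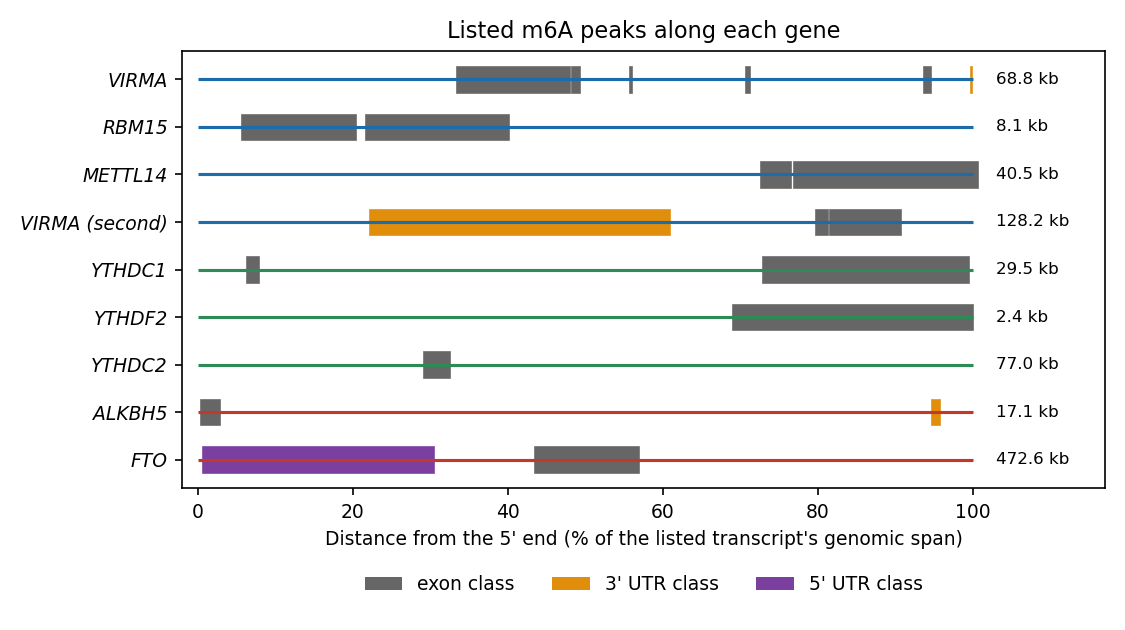
Position of the 21 listed peaks along each of the 9 identifiers, from the 5' end (0) to the 3' end (100) as a percentage of the genomic span of the longest listed transcript (given at the right in kb); boxes are peaks coloured by class, lines are transcripts coloured by role as for the FPKM values. Pairs of peaks at most 149 bases apart on *METTL14* and both *VIRMA* identifiers nearly touch at this scale. Peaks on *METTL14* and *YTHDF2* lie in the 3' part, those on *RBM15* in the 5' part, and those on *FTO* cover 43.4% of the span.

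*VIRMA* carried the most peaks. Its first identifier is listed on the plus strand of chromosome 18 from 62041795 to 62110602, with 24 exons, and its 6 peaks were more than 98.5% of identifiers with a peak carried (1.49% had 6 or more). The widest spanned 10057 bp from 62064730 to 62074786 and was annotated to exon 5. It was followed after 98 bases by a peak of 795 bp at exon 8, from 62074885 to 62075679. Further downstream lay peaks of 200 bp at exon 9 (62080094 to 62080293), of 447 bp at exon 13 (62090364 to 62090810) and of 699 bp at exon 21 (62106130 to 62106828). The last peak, of 200 bp in the 3' UTR class, ran from 62110304 to 62110503 and stopped 99 bases before the listed end. Peaks thus began at 33.3% of the transcript's span and reached its end, with none in the first part.

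The second identifier named *VIRMA* (ENSBGRG00000008611) begins 15742 bases downstream on the same strand, and its longest listed transcript runs from 62126345 to 62254557 with 16 exons. Its FPKM was 2.94 in TES5, 2.82 in TES6 and 2.73 in TES7, a mean of 2.83 ± 0.103 (SD, n = 3). The first identifier was thus 8.28, 8.58 and 9.91 times as high. Its 3 peaks were wide, with 49742 bp in the 3' UTR class of a shorter transcript (62154703 to 62204444), 2080 bp at exon 10 (62228432 to 62230511) and 12067 bp at exon 11 (62230661 to 62242727). None of its 7 ontology terms concerns m6A, and they include RNA-mediated transposition and the reverse transcriptase term RNA-directed DNA polymerase activity, which 16.7% of identifiers with a peak and a term carried. The 11 terms of the first identifier include the m6A methyltransferase complex. In RefSeq's annotation of another yak assembly, Bosgru_T2T1.0, *VIRMA* is 1 record, and between it and the next named coding gene, *GEM*, lie 1 unnamed coding gene, 1 tRNA and 1 lncRNA. Whether the second identifier is part of *VIRMA* was not tested.

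*RBM15* is listed on the plus strand of chromosome 3 from 39431085 to 39439156, with 3 exons. Both of its peaks were annotated to exon 1, a peak of 1196 bp from 39431533 to 39432728 and one of 1495 bp from 39432828 to 39434322, with 99 bases between them. They began 448 bases after the listed start and covered 33.3% of the span. *METTL14* is listed on the plus strand of chromosome 6 from 121511048 to 121551559, with 11 exons. Its peaks lay at the other end of the gene, with 1640 bp at exon 9 (121540424 to 121542063) and 9702 bp at exon 10 (121542161 to 121551862). The latter reached 303 bases past the listed end of the transcript, and 97 bases separated the pair.

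Short gaps of this kind were found on each identifier named as a writer. These identifiers also held most of the members' neighbouring pairs. At most 150 bases, a limit chosen after the values were seen, separated 4 of the 12 neighbouring pairs of peaks on the members. They were on *RBM15*, *METTL14* and both *VIRMA* identifiers (97, 98, 99 and 149 bases). The gap of 149 bases was on the second *VIRMA* identifier, whose place in *VIRMA* was not tested. Over all genes, this held for 16.1% of 7200 neighbouring pairs. Merging peaks of a gene within 100 bp left 18 peaks on the members. Peaks on the erasers and on *YTHDC1* were at least 15656 bases apart. With 2 peaks on each of these identifiers, their pairs are too few for a comparison of roles.

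*ALKBH5* is listed on the plus strand of chromosome 19 from 32745107 to 32762196, with 4 exons. Its peaks were narrow and at the opposite ends of the gene. A peak of 447 bp in exon 1 (32745157 to 32745603) began 50 bases after the listed start, and one of 199 bp in the 3' UTR class (32761260 to 32761458) ended 738 bases before the listed end. Together they covered 3.78% of the span, while the median over all identifiers with a peak was 12.4%. Their summed width of 646 bp, on a span of 17090 bp, was the smallest of the 9 identifiers. *YTHDF2*, at a far lower level, followed with 734 bp, and the covered share was lower on *YTHDC2* (3.46%).

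*FTO* had wide peaks on a span of 472607 bp. It is listed on the minus strand of chromosome 20, and its longest transcript runs from 25502906 to 25975512 with 9 exons. A peak of 141179 bp in the 5' UTR class (25831719 to 25972897) was the 49th widest of all listed peaks, and one of 63911 bp at exon 6 (25706740 to 25770650) the 237th widest. Only 2.17% of all peaks exceeded 50000 bp. The wider peak was assigned to a shorter transcript (25529765 to 25931036), past whose start it reached by 41861 bases, but it lay within the longest one, 2615 bases from its start. Of the members' peaks, 3 reached past the transcript they were assigned to, on *FTO*, *METTL14* and the second *VIRMA* identifier, as did 6.99% of all peaks. *RPGRIP1L*, the neighbouring gene on the other strand, starts 20 bases beyond *FTO*, and 2635 bases separated it from the peak. How much of either peak is exon was not measured. The 12 ontology terms listed for *FTO* include porin activity, listed for 1 of the 7944 identifiers with a peak and a term (0.0126%), and binding of sperm to the zona pellucida, and none concerns RNA or demethylation. For *ALKBH5*, demethylation of RNA and spermatogenesis are among 13 terms.

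The readers among the members had 1 or 2 peaks each. *YTHDC1*, with 16 exons, lies on chromosome 6 (minus strand, 37161504 to 37190973). A peak of 524 bp at exon 2 (37188636 to 37189159) lay 1814 bases from its start, and one of 7886 bp at exon 10 (37161654 to 37169539) ended 150 bases before its 3' end. *YTHDC2*, with 29 exons, lies on chromosome 11 (minus strand, 23004676 to 23081629). Its single peak of 2666 bp at exon 8 (23056574 to 23059239) covered 3.46% of the span, and its 7 terms were those of the second *VIRMA* identifier, with none on m6A. *YTHDF2* is listed on the plus strand of chromosome 2 from 13070805 to 13073167, a span of 2363 bp with 4 exons. Its single peak of 734 bp in exon 4, the last one (13072434 to 13073167), ended on the last base of the listed transcript.

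**Figure D4:**
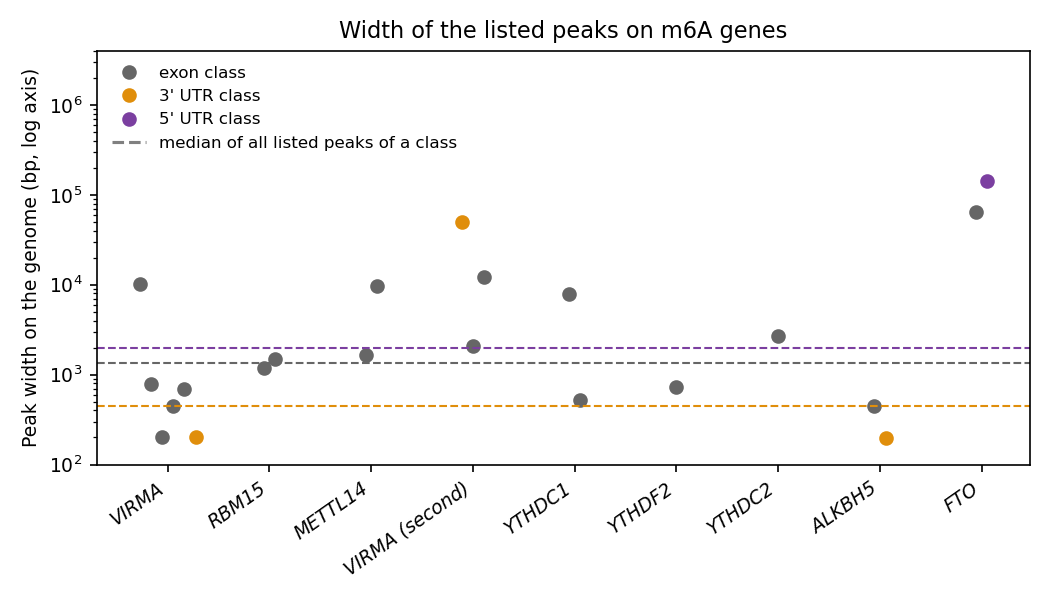
Width on the genome (bp, log axis) of each listed peak on the 9 identifiers, ordered by role and mean FPKM and, within an identifier, by genome position; dashed lines are the medians of all listed peaks of a class, 1333 bp for exon, 447 bp for 3' UTR and 1985 bp for 5' UTR. Widths run from 199 bp (*ALKBH5*) to 141179 bp (*FTO*).

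Over the members, peak width had a median of 1495 bp, beside 1022 bp for all listed peaks. The order turns without the second *VIRMA* identifier, where the members' median was 995.5 bp, and with peaks merged within 100 bp it was 2373 bp. Of the 21, 9 were at most 1000 bp wide (49.8% of all peaks were), 10 were wider, up to 50000 bp, and 2 were wider still. More than 5000 bp was spanned by 7 of 21, against 24.7% of all peaks. The members' peaks of at most 500 bp were 199 to 447 bp wide, and 5 of 5 lay within 3 bp of a multiple of 50 bp, as did 77.1% of all listed peaks of that size. No other listed peak overlapped a member's peak, and for each of the 17 exon class peaks the annotated exon belonged to the listed identifier. Peaks covered 28.5% of the span in the median of the 9 identifiers, from 3.46% (*YTHDC2*) to 49.8% (second *VIRMA* identifier).

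Other genes of the m6A pathway were taken from fixed lists, and a symbol could be matched only where the peak list holds it. Of 10 further writer symbols, 5 had a listed peak. *RBM15B*, a paralogue of *RBM15*, had 2 exon class peaks and a mean FPKM of 28.9 ± 1.62 (SD, n = 3), and *ZC3H13*, which anchors the regulatory subcomplex in the nucleus, had 2 peaks and 14.7 ± 1.67. *METTL5*, a methyltransferase of ribosomal RNA, had 1 peak and 7.13 ± 0.395. *PCIF1*, which methylates the adenosine next to the cap, had 1 peak of 448 bp in the 3' UTR class and a mean FPKM of 8.95 ± 0.280 (SD, n = 3). The identifier named *METTL16* is listed at 0 in every input library, and its only peak, of 31230 bp, was annotated to an exon of another identifier. *METTL3*, *WTAP*, *CBLL1*, *TRMT112* and *ZCCHC4* had no peak under these symbols, and their FPKM was not analysed here.

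Of 12 further reader symbols, 7 had a listed peak. *PRRC2A* was the highest, with 3 exon class peaks and a mean FPKM of 55.9 ± 0.600 (SD, n = 3), followed by *RBMX* with 31.0 ± 2.72, *LRPPRC* with 23.6 ± 0.614 and *FMR1* with 9.94 ± 1.61. The 3 *IGF2BP* genes, whose proteins stabilise methylated transcripts, were the lowest, with mean FPKM values of 3.83 ± 0.704 (*IGF2BP1*), 3.07 ± 0.632 (*IGF2BP2*) and 2.00 ± 0.409 (*IGF2BP3*). *YTHDF1* and *YTHDF3*, the paralogues of *YTHDF2*, had no peak under these symbols.

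Among partners of the readers, 7 of 10 symbols had a listed peak. *MEIOC*, the meiotic partner of YTHDC2, had a mean FPKM of 9.20 ± 1.15 (SD, n = 3), near the 8.66 of *YTHDC2*, with peaks of 400 and 848 bp in the exon class. *RBM46*, a further partner, had a mean FPKM of 5.90 ± 1.37 with 7.08 in TES5, 6.24 in TES6 and 4.39 in TES7. *XRN1*, the exonuclease that YTHDC2 binds, had 4.05 ± 0.0561. *CNOT1*, the scaffold of the deadenylase that YTHDF2 recruits, had 48.0 ± 1.92 and 2 peaks, both in the 3' UTR class. *UPF1*, a helicase of nonsense-mediated decay, was on 2 identifiers, with 36.1 ± 1.29 and 1.48 ± 0.254. *SRSF3* and *CPSF6*, RNA-processing partners of YTHDC1, had 4.92 ± 0.773 and 31.8 ± 5.63. *RBM46* was highest in TES5, as was *YTHDC2* in the deposited scaling but not with libraries at the same sum.

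Genes most like a member were sought among named genes with the same number of peaks, by the distance of log2(FPKM + 1) over the 3 input libraries. For *VIRMA* (6 peaks, 60 candidates) these were *BAZ1A*, at a distance of 0.231 and with a mean FPKM of 26.1 ± 2.07 (SD, n = 3), and *EP300*, at 0.263 and 26.1 ± 4.03. For *ALKBH5* (2 peaks, 2337 candidates) they were *SF3A1*, at 0.0927 and 77.0 ± 6.97, and *KDM5B*, at 0.170 and 72.7 ± 7.96. With 3 libraries, the distance rests mainly on the mean level.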

How the data were processed

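FPKM values of the 3 input libraries were computed and deposited by the authors, and the program is not given in the sources used here. Before that, Trimmomatic trimmed the reads, SortMeRNA removed those of ribosomal RNA, and the rest were aligned to LU_Bosgru_v3.0 (Ensembl release 99) with HISAT2 (2.0.4 in the submitters' processing notes) with unique reads kept. The authors called peaks with MeTDiff, IP against input, and annotated them with ChIPseeker; the deposited list is 1 list without scores. FPKM keeps no read numbers, so no counting interval or detection limit is given, and the study's sequencing statistics were not used here; its sum per library was 302365 (TES5), 280940 (TES6) and 285927 (TES7).

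Peaks were selected by symbol, and positions along a gene were measured on its longest listed transcript. The limit of 150 bases, the multiples of 50 bp, the ontology terms and the coefficient of variation were chosen after values were seen. Means, SDs and Wilson intervals were computed with Python 3.11.15, numpy 2.4.6, pandas 2.3.3 and matplotlib 3.10.9. The merging of peaks, the gaps between peaks and the Wilson intervals were tested on simulated data. No count model and no test between groups was used. The members, gene lists and marker lists were chosen with earlier results of these data known. The text names all members, the listed m6A genes (those without a peak by example for readers, not for partners), a few markers per cell type, and for 2 members the most similar genes. *RPGRIP1L* and *GEM* were named after their positions were seen. Primers were taken from the study's supplement. A genome sequence was not used here, so motifs were not searched.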

Additional observations from a re-analysis of the deposited data

How the results depend on the processing

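No paired analysis was possible because FPKM is given for the input libraries only and the peak list is 1 list for the 3 animals, so IP and input cannot be compared per animal. A stricter peak threshold was not run for want of scores. FPKM carries no read numbers, so the counting error of low values was not estimated.

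The 21 member peaks became 9 with peaks of at most 1000 bp. They numbered 18 when merged and, as chosen after seeing the data, 18 without the second *VIRMA* identifier. The share in the exon class, 81.0%, was 37.9% when weighted by width, because the wide 5' UTR class peak of *FTO* and the 3' UTR class peak of the second *VIRMA* identifier hold much of the length. Mean FPKM moved by less than its SD in 63 of 65 alternative values; summing both *VIRMA* identifiers gave 28.05 in place of 25.2 and 2.83. With 3 animals, omitting 1 moves the mean by less than 1 SD by construction, so this says nothing about stability. The share of genes with a lower mean FPKM fell for all 9 identifiers when counted over genes with an FPKM of at least 1 only, to 95% (*ALKBH5*), 78.9% and 14.6% (*VIRMA*, first and second), 75% (*YTHDC1*), 62.5% (*RBM15*), 62.3% (*YTHDF2*), 46.3% (*YTHDC2*), 34.5% (*METTL14*) and 31.9% (*FTO*), since genes at low levels are left out. The coefficients of variation of the 9 identifiers stayed under the median of expressed genes with libraries rescaled to the same sum (highest 8.25%, median 12.6%) though the order among them changed, and by the median ratio (highest 9.36%, median 12.2%).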
